A study of Zingiber officinale with 6 samples.

Results

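LOC122056399 is a ginger gene described as BURP domain-containing protein 3-like. It was taken by its row identifier and is 1 of 55601 genes in the deposited tables. The gene was chosen because its expression differed so widely between the groups of this study. Its own values are therefore given as a description, and no test of that difference is reported for it.

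Ginger seedlings (Zingiber officinale, Laiwu variety) were grown in pots sealed on top of glass jars of V8 agar, with holes in the pot floor through which volatile compounds could reach the roots. In the Po-VOCs group, 3 plants stood above jars inoculated with the oomycete Pythium oligandrum, strain GAQ1. In the control group, 3 plants stood above jars of the same medium without the oomycete. Leaf blades of the uppermost leaves were taken at 21 days for RNA-seq, with 1 library per plant.

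BURP proteins are found in plants only and are named after their first known members: BNM2, USP, RD22 and the beta subunit of a tomato polygalacturonase. They share a C-terminal domain with repeated cysteine-histidine pairs, and many carry a signal peptide and are secreted to the cell wall. RD22 of Arabidopsis thaliana is a classical marker gene of drought and abscisic acid, and the tomato beta subunit is linked with the breakdown of pectin, the gel-forming polysaccharide of the wall. The role of LOC122056399 in ginger is not given by any source used here.

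The libraries held 13695463 to 14662442 counts on genes. In a principal-component analysis of the 500 most variable genes the groups separated on PC1 (58.0% of the variance), and control replicate 3 lay apart on PC2, at -58.1 against -4.17 to 35.6 for all other libraries. The plastid genes rbcL and psbA, which encode photosynthesis proteins, had counts in every library, at 0.338 to 6.56 and 5.98 to 57.2 FPKM (fragments per kilobase of gene length, scaled to the library total), with the highest value of both in Po-VOCs replicate 3. The study prepared its libraries with a stranded mRNA kit, and how well this recovers plastid transcripts was not examined, so these values do not check the tissue. Markers of leaf tissue encoded in the nucleus were not looked up, since no protein sequences were used.

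LOC122056399 lies on chromosome 3B of the Zo_v1.1 assembly, from position 39272002 to 39273620, and is annotated with 1 transcript and 1 protein. The deposited FPKM values imply a length of 1377 bases for the gene, within a span of 1619 bases. One count was worth 0.0495 to 0.0530 FPKM, depending on the library. Whether the gene has a near-identical copy was not examined, and how shared reads were counted is not known, so its level could be affected by such reads.

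In Po-VOC-exposed plants the gene had 1922, 918 and 1343 counts in replicates 1, 2 and 3. In control plants it had 1, 11 and 4 counts in replicates 1, 2 and 3. All exposed plants were thus far above all control plants, and the control values lay close to the detection limit of the libraries. Per length, these counts correspond to 102, 45.5 and 69.4 FPKM in exposed plants. The control plants had 0.0518, 0.558 and 0.206 FPKM. The exact 95% Poisson interval was 0.00131 to 0.288 FPKM in control replicate 1, 0.279 to 0.999 FPKM in control replicate 2 and 0.0560 to 0.526 FPKM in control replicate 3. These intervals cover counting error only, and at this depth the order of the control plants was not well resolved.

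**Figure D1:**
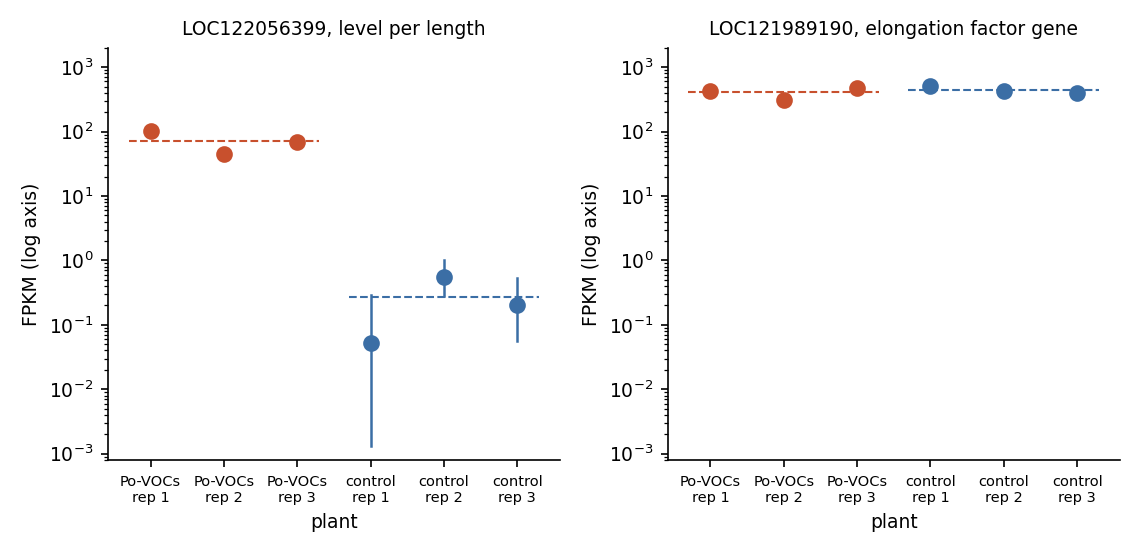
Level of LOC122056399 (left) and of the elongation factor gene LOC121989190 (right) in each plant, in FPKM on a log axis. Points are single plants, vertical lines in the left panel are exact 95% Poisson intervals of the count and dashed lines are group means. LOC122056399 sat between 45.5 and 102 FPKM in exposed plants and between 0.0518 and 0.558 FPKM in control plants, while LOC121989190 stayed between 308 and 507 FPKM throughout.

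The gene averaged 72.3 ± 28.3 FPKM in exposed plants and 0.272 ± 0.260 FPKM in control plants (SD, n = 3 each). Summed over the group, 4183 counts in exposed plants stood against 16 in control plants, a ratio of 262 per library total with an exact 95% interval of 161 to 458 for counting error alone. The lowest of the 9 ratios between one exposed and one control plant was 81.4, for Po-VOCs replicate 2 against control replicate 2, with a counting interval of 45.3 to 164. The highest was 1969, for Po-VOCs replicate 1 against control replicate 1, and since it rests on 1 control count its counting interval runs from 353 to 77804. The log2 fold change fitted by edgeR was 8.00 (SE 0.63). Without control replicate 3, the library apart on PC2, it was 7.82. Without control replicate 2, which holds 11 of the 16 control counts, it was 9.06. In leaf blades, which mix many cell types, more cells with the transcript and more transcript per cell cannot be told apart.

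The study used the elongation factor gene LOC121989190 as its qPCR reference, so it offers a scale that does not depend on library totals. It had 429, 308 and 478 FPKM in exposed plants and 507, 431 and 400 FPKM in control plants. These ranges overlapped, and its log2 fold change was -0.14 (SE 0.26, edgeR adjusted p = 0.802). Per 1000 counts of LOC121989190 there were 161, 99.9 and 98.4 counts of LOC122056399 in exposed plants. In control plants there were 0.0691, 0.876 and 0.348. On this scale the ratio of the groups was 290, close to the ratio per library total.

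The exposed plants differed among themselves by more than counting error. Replicate 1 had 97.4 to 107 FPKM (exact 95% Poisson interval), replicate 2 had 42.6 to 48.5 FPKM and replicate 3 had 65.8 to 73.2 FPKM, with no overlap between these intervals. The coefficient of variation over the exposed plants was 39.2%. Among the 1236 genes with a mean of 50 to 100 FPKM in exposed plants, the median coefficient was 19.0% and 172 genes had a larger one, so the gene was more variable than most genes of its level. The order of the exposed plants, with replicate 1 highest and replicate 2 lowest, was found in 93 of the 452 genes called up, or 20.6%, and the other 5 orders each held 13.5% to 18.8%.

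The place of the gene among all genes also differed between the groups. By mean FPKM the gene was in place 1315 of the 55601 genes in exposed plants, with 2.36% of genes above it. In control plants it was in place 43800, with 78.8% of genes above it. In single exposed plants it took place 774, 2301 and 1532 in replicates 1, 2 and 3. In single control plants it took place 47892, 40043 and 44780. By CPM (counts scaled to the library total alone), its place in exposed plants was 1348. The gain of 72.0 FPKM was the 248th largest of all genes.

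As a background, edgeR's quasi-likelihood test with Benjamini-Hochberg adjustment called 1.09% of the 41508 genes tested up and 1.02% down. A call needed an adjusted p under 0.05, a log2 fold change beyond 1 in size, and at least one group mean over 1 FPKM. Every exposed plant was above every control plant in 14.5% of the genes tested, and the groups did not overlap in one direction or the other in 26.9%. LOC122056399 was in both sets, as its selection already implies.

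By fitted log2 fold change the gene stood in place 3 of the genes tested. The genes ahead of it had no counts in any control plant, so their fitted values depend on the prior count. LOC122011509, described as an enzyme of ethylene synthesis (1-aminocyclopropane-1-carboxylate synthase 3-like), had 90, 90 and 30 counts in exposed plants. Taking 3 counts in each control library as the floor, this is at least 23.3-fold higher. LOC121969465, described as indole-3-acetic acid-amido synthetase GH3.8-like, a type of enzyme that links auxin to amino acids, had 44, 46 and 17 counts in exposed plants, at least 11.9-fold higher by the same floor. Both were expressed at a far lower level than the BURP gene, with means of 2.79 and 1.14 FPKM in exposed plants. Just below it came LOC122031998, an uncharacterized protein with 19.1, 4.90 and 4.76 FPKM in exposed plants and 2 counts in all control plants together. The next gene was LOC121975255, also uncharacterized, with 39, 16 and 19 counts in exposed plants and none in control plants, and therefore at least 8.32-fold higher. With a prior count of 2, which damps changes resting on few reads, LOC122056399 had a log2 fold change of 7.58 and came first.

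Most of the largest fold changes belonged to weakly expressed genes. Of the 20 genes with the largest fitted log2 fold change, 17 had a mean below 15 FPKM in exposed plants and 3 had a mean above 50 FPKM, of which LOC122056399 was one. The others were LOC122015368, with 5.46, 99.7 and 204 FPKM in exposed plants and 1.81, 1.88 and 0.212 FPKM in control plants, and LOC122034619, with 174, 78.9 and 36.7 FPKM in exposed plants and 0.319, 0.250 and 3.23 FPKM in control plants. No description is held for them, and LOC122015368 was not called (edgeR adjusted p = 0.0660). Highest over lowest exposed plant was a ratio of 2.24 for LOC122056399, against 37.4 for LOC122015368 and 4.73 for LOC122034619, with a median of 3.04 over the 20 genes. The BURP gene was thus the most even of these highly expressed genes.

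**Figure D2:**
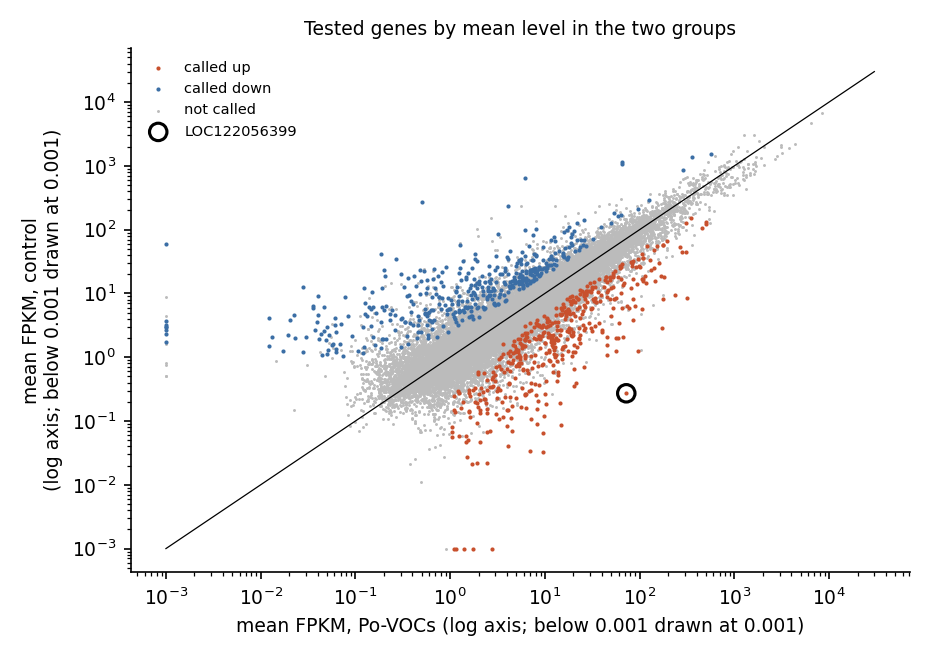
Mean FPKM of each tested gene in Po-VOC-exposed plants (horizontal) against control plants (vertical), both on log axes, with genes called by edgeR in colour and LOC122056399 circled. The line marks equal levels. At 72.3 FPKM in exposed plants and 0.272 FPKM in control plants, the gene lies farther below the line than any other tested gene above 50 FPKM in exposed plants.

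A further 1314 genes had a higher mean in exposed plants than LOC122056399. The lowest control mean among them was 1.27 FPKM, in LOC122034619, and 0 of them had a control mean below 1 FPKM. That lowest mean rests on control replicate 3, at 3.23 FPKM, the library apart on PC2. In control replicates 1 and 2 LOC122034619 had 0.319 and 0.250 FPKM, a level like that of LOC122056399. The set is also cut at the exposed mean of LOC122056399 itself. Plant by plant, 16521 genes, or 29.7% of those listed, were below 1 FPKM in every control plant. Of these, 363 were above 1 FPKM in every exposed plant, 12 were above 5 FPKM, and 2 (0.0036% of the genes listed) were above 10 FPKM. The opposite pattern, above 10 FPKM in every control plant and below 1 FPKM in every exposed plant, was found in 3 genes. The limits of 5 and 10 FPKM were chosen with the gene's values known, and the number of genes depends on them. With a limit of 0.5 FPKM in control plants no gene remained, because LOC122056399 itself was at 0.558 FPKM in control replicate 2, and with 2 FPKM there were 12. Without Po-VOCs replicate 1 the number above 10 FPKM was 11, and without control replicate 3 it was 7.

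The other gene above 10 FPKM in every exposed plant and below 1 FPKM in every control plant was LOC121987834 (chromosome 5B, 124850994 to 124851653), described as transcription factor IBH1-like 1. IBH1 is known in Arabidopsis and rice as a helix-loop-helix protein that restrains cell elongation. LOC121987834 had 21.2, 11.3 and 27.6 FPKM in exposed plants. It had 0.108, 0.530 and 0.429 FPKM in control plants. Its exposed plants had a different order, with replicate 3 highest, although replicate 2 was the lowest in both genes. At a limit of 20 FPKM in exposed plants only LOC122056399 met the pattern.

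The 12 genes that passed 5 FPKM in every exposed plant are described, by the held annotation, as several kinds of protein. A second IBH1-like gene, LOC121987835, had 17.8, 6.69 and 16.0 FPKM in exposed plants and 0.116 to 0.578 FPKM in control plants. LOC122038680, described as the helix-loop-helix factor ILI3-like, had 13.0, 7.34 and 10.4 FPKM in exposed plants and 0.315 to 0.522 FPKM in control plants. LOC122001263, described as an isoaspartyl peptidase/L-asparaginase, was uneven, with 42.4, 15.3 and 5.59 FPKM in exposed plants and at most 0.611 FPKM in control plants. The remaining 7 of the 12 had means of 5.44 to 12.2 FPKM in exposed plants. None of the other 11 had a mean above 21.1 FPKM in exposed plants, where LOC122056399 had 72.3 FPKM.

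Likeness of pattern was measured by Pearson's correlation of log2 CPM over the 6 libraries, with library totals scaled by edgeR's TMM factors. It was taken among 37981 other tested genes with a mean above 1 FPKM in the higher group. The libraries fall into 2 groups, so a high value mostly reflects the difference between them, and 481 genes exceeded 0.95. The closest was LOC122048948 (chromosome 2B, 4584062 to 4585445), for which no description is held, with r = 0.998. It had 112, 75.1 and 79.6 FPKM in exposed plants and 3.45, 9.20 and 6.47 FPKM in control plants. In both groups its plants stood in the same order as those of the BURP gene, which the choice by correlation favours. Its exposed level was similar, but its control level was higher. The other 4 of the closest 5 genes also had r = 0.998, with smaller log2 fold changes of 0.79 to 2.17. LOC121975040 and LOC121980653 have no held description. LOC122025475 is described as alcohol dehydrogenase-like 7, and LOC122001344 as a chloroplastic ribosome-recycling factor, a protein that releases ribosomes after translation. In the order named, their means in exposed plants were 4.44, 19.97, 7.13 and 3.29 FPKM, with means of 2.55, 10.3, 2.54 and 0.722 FPKM in control plants.

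**Figure D3:**
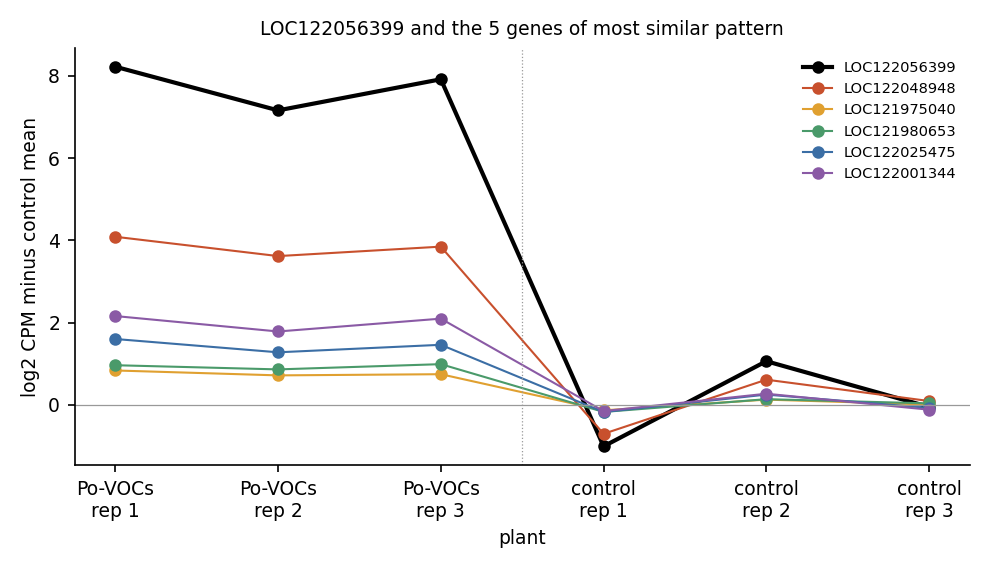
Log2 CPM of LOC122056399 and of the 5 genes of most similar pattern in each plant, minus each gene's mean over the control plants. The library totals were here scaled by edgeR's TMM factors, and on that scale replicate 2 is the lowest exposed plant and the highest control plant in all 6 genes. By FPKM, which lacks these factors, replicate 3 was lower than replicate 2 among exposed plants in LOC121975040 (3.97 against 4.31) and LOC121980653 (18.8 against 19.1). The 5 genes were chosen for likeness over these plants, so a shared order follows from the choice. The line of LOC122056399 lies highest, between 7.16 and 8.22 above its control mean.

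Few reads fell on the genes closest to LOC122056399. Within 1 Mb on either side on chromosome 3B the annotation lists 34 other genes, of which 24 are protein coding. The tables hold rows for protein-coding genes only, each with at least 1 count over the 6 libraries, and 16 of the 24 have a row. Over the whole annotation, 55601 of 68154 protein-coding genes have one. Genes of other kinds were not analysed here. The nearest gene on one side, LOC122054826, lies 28.6 kb away and has no row. On the other side LOC122054827, 26.5 kb away, had 1 count in Po-VOCs replicate 1 and none elsewhere. The protein-coding genes LOC122054825, LOC122054829 and LOC122054830 have no row either, and the snoRNA LOC121968839, which completes the 3 nearest genes on each side, is of a kind not tabulated. Of the 5 protein-coding genes among these neighbours, 1 thus has a row, with 1 count, where the BURP gene had 4199 counts over all libraries.

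The nearest genes that passed the filter on low counts were 991 kb away on one side and 329 kb away on the other. Between them lie 13 protein-coding genes besides LOC122056399, and the 5 of these with a row had at most 3 counts each. LOC122056400, the closest tested gene, had 38.2, 44.6 and 53.8 FPKM in exposed plants and 36.6, 44.3 and 40.7 FPKM in control plants. The groups overlapped, and its log2 fold change was 0.18 (SE 0.22, edgeR adjusted p = 0.690). Next to it, LOC122056401 had 25.0, 30.7 and 26.98 FPKM in exposed plants and 12.2, 15.4 and 12.0 FPKM in control plants. It was the 1 called gene of the 9 tested in the window, where 2.11% of all tested genes were called either way. Its log2 fold change was 1.06 (SE 0.19, edgeR adjusted p = 0.0407). The adjusted p was 0.0343 without Po-VOCs replicate 1, and 0.0807 to 0.144 without any one of the other libraries. In the fits without one of those other libraries, edgeR called 1 to 421 genes up over all genes, against 452 with all libraries. LOC122056402 had 38.2, 66.5 and 58.9 FPKM in exposed plants and 7.14, 22.8 and 34.9 FPKM in control plants, and was not called (edgeR adjusted p = 0.204). Over the 9 genes, log2 fold changes ran from -0.31 to 1.36 with a median of 0.18, against a median of 0.01 over all genes tested. The width of the window was chosen with these values known.

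**Figure D4:**
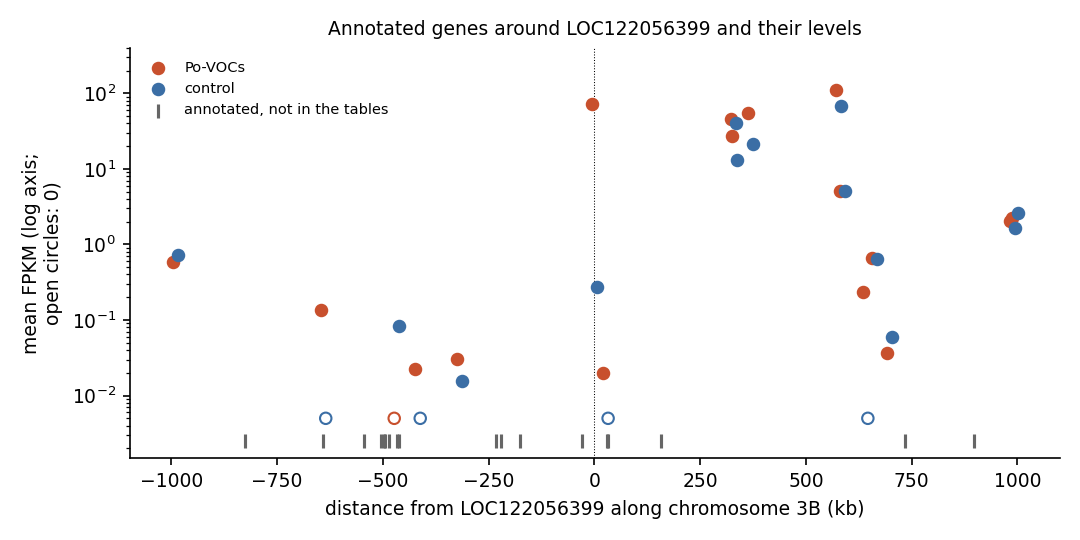
Mean FPKM (log axis) of the annotated genes within 1 Mb of LOC122056399 against their distance from it in kb, for Po-VOC-exposed plants and control plants, drawn slightly apart. Open circles are means of 0 and ticks are annotated genes with no row in the tables, non-coding genes included. Around LOC122056399, at 72.3 and 0.272 FPKM, genes with a row were at or near 0 out to 329 kb on one side and 991 kb on the other.

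The BURP family as a whole was to be taken from protein sequences, which were not used here, and LOC122056399 is the only gene with the BURP domain among the 1514 annotated rows held. These rows were selected by the study as upregulated in the same libraries. They hold 7 genes of pectin enzymes, of which 2 are polygalacturonases, which cut pectin chains, and 5 are pectinesterases, which remove methyl groups from them. Since the study drew these rows from the same data, neither their direction nor the size and p of their changes is independent evidence, and nothing is read from their counts. Of the 6 with enough counts, edgeR called 2, both upregulated, where 1.09% of all tested genes were called up. Their median log2 fold change was 2.75, a value that the selection favours. DESeq2 called all 6, where it called 3.93% of all genes up. The study's own calls came from DESeq2 at the same limits on the same libraries. This outcome was therefore largely fixed by the selection of the rows. Without control replicate 1, control replicate 2 or Po-VOCs replicate 2, edgeR called 0 of them. Over all genes those fits called only 54, 1 and 25 up, in the same order, against 452 with all libraries. The loss of these calls is therefore not particular to pectin enzymes.

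The polygalacturonase LOC122041773 had 1.90, 1.04 and 1.01 FPKM in exposed plants and 0.105, 0.206 and 0.173 FPKM in control plants. The groups did not overlap, as in 26.9% of all genes tested, and the selection of these rows favours that. The log2 fold change of LOC122041773 was 2.97 (SE 0.45, edgeR adjusted p = 0.0297). The pectinesterase LOC121985699 had 0.644, 2.21 and 1.82 FPKM in exposed plants and 0.0599, 0 and 0.0891 FPKM in control plants. Its log2 fold change was 4.90 (SE 0.86, edgeR adjusted p = 0.0390). Both genes lost the call when any library other than Po-VOCs replicate 1 was left out, with adjusted p of 0.0515 to 0.139. Over all genes, edgeR called 25 and 28 up without Po-VOCs replicates 2 and 3. It called 54, 1 and 421 up without control replicates 1, 2 and 3. The pectinesterase LOC122056300 had 5.87, 3.90 and 0.176 FPKM in exposed plants and 0.281 to 0.448 FPKM in control plants. The pectinesterase LOC121990588, not tested, had 2.49, 1.55 and 0.116 FPKM in exposed plants and 0.116 to 0.192 FPKM in control plants. In both, Po-VOCs replicate 3 was thus at control level. The highest levels were those of the pectinesterases LOC122017189, at 57.1, 98.1 and 37.7 FPKM in exposed plants and 4.85, 26.02 and 22.4 FPKM in control plants, and LOC122010312, at 35.6, 69.7 and 32.1 FPKM in exposed plants and 1.96, 12.9 and 8.84 FPKM in control plants. Their adjusted p were 0.150 and 0.0867 in edgeR's test. In exposed plants these reached a level like that of the BURP gene, but with replicate 2 highest, where LOC122056399 had its lowest exposed value.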

How the data were processed

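According to the study's methods, Trimmomatic served for read trimming, HISAT2 for mapping to the ginger reference Zo_v1.1, and HTSeq-count for counting per gene. The authors deposited these counts without normalization, and deposited FPKM values that the methods attribute to Cufflinks. For LOC122056399 the FPKM values equal its counts rescaled by length and library total, to within 7.1e-07%. They are therefore not a second measurement of it. Versions, strand setting and counting mode were not given in the sources used here. Levels of genes with near-identical copies, LOC122056399 included if it has one, are therefore uncertain. All 55601 gene IDs were found in the RefSeq annotation.

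The count analysis used edgeR 4.0.16 under R 4.3.3: filterByExpr (minimum count 10, minimum total 15, leaving 41508 genes), TMM scaling and the quasi-likelihood test of Po-VOCs against control with no covariate, adjusted by Benjamini-Hochberg over all genes tested. Standard errors (SE) were obtained by dividing the size of each log2 fold change by the root of its F statistic. DESeq2 1.42.0 and limma 3.58.1 (log2 FPKM with pseudocounts of 1 and 0.1) gave the alternatives. The main edgeR fit, DESeq2 and limma with a pseudocount of 1 were first tested on simulated data with known changes. The other variants were not. Log2 CPM used a prior count of 2 and library totals scaled by TMM. Libraries of one group differed by more than sampling noise (chi-square over its degrees of freedom, 17.5 to 37.1).

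The gene, the lists and the limits were chosen with earlier results of these data known. Beside LOC122056399, named genes are the 3 annotated neighbours on each side, the 5 of closest pattern, the 2 on either side in rank of change and at most 3 called pectin enzymes per direction; others were added after their values were seen. Planned analyses of the BURP family, of promoters and of leaf marker proteins needed sequences and were not run. Pectin enzymes were taken from Pfam annotations in the study's supplementary table instead of protein signatures, and only names were taken from it.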

Additional observations from a re-analysis of the deposited data

How the results depend on the processing

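The log2 fold change of LOC122056399 kept its sign under all 16 alternatives. Exposed plants had at least 918 counts and control plants at most 11, so the sign could not have turned. The log2 fold change lay between 7.54 and 9.06 with single libraries left out. It was 5.79 with limma on log2(FPKM + 1), where the pseudocount exceeds every control value. With the replicate number as a block it was 7.98. Same-numbered libraries did not deviate together (correlations of -0.02, 0.02 and -0.10 for numbers 1, 2 and 3). The labels do not say whether they share more than a number. The block reduced the genes called to 65 up and 71 down, and the pectin enzymes called to 0. Its rank of change lay between 2 and 10 with single libraries left out, and was 1 with a prior count of 2 and with limma at pseudocounts of 1 and 0.1. Its place by level in exposed plants lay between 1078 and 1800. The number of genes below 1 FPKM in every control plant and above 10 FPKM in every exposed plant lay between 2 and 11 with single libraries left out. It was 0 with limits of 0.5 and 10 FPKM, 12 with 2 and 10 FPKM, 12 with 1 and 5 FPKM and 1 with 1 and 20 FPKM.

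Over all genes, edgeR called 452 up and 424 down, and DESeq2 on the same genes called 1632 and 1302. With single libraries left out, edgeR called 1 to 969 genes up and 3 to 631 down, and 0 to 2 pectin enzymes. DESeq2, which the study also used to select these rows, called 6 pectin enzymes, and limma on log2(FPKM + 1) called 0. Signs turned in genes near no change: with single libraries left out, the log2 fold change of LOC121989190 lay between -0.34 and 0.032 (positive without Po-VOCs replicate 2), and the log2 fold change of LOC122056400 between -0.015 and 0.34 (negative without Po-VOCs replicate 3). The planned counts of BURP family genes were not run. With 3 plants against 3 an exact permutation test cannot give a p below 0.1, and the control level of LOC122056399 rests on 16 counts.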
